A study of Mus musculus with 18 samples.

Results

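The comparison set 3 single-cell libraries of spleen against 3 of lung, all from tumour-bearing mice, out of 18 libraries in the series. Each organ contributed 1 library at 7, 14 and 21 days after tumour cell injection, and lung and spleen of the same day were treated as a pair. After filtering, these 6 libraries held 9294 of the 19761 cells kept in the series. The tumour-bearing mice were female BALB/cJ animals that received 2000000 4T1-tdTomato-luc2 cells, a BALB/c mammary carcinoma line carrying a red fluorescent protein and a luciferase, in the fourth right mammary fat pad. They were labelled as 9, 10 and 11 weeks old at days 7, 14 and 21. Healthy mice of the same strain and ages, without tumour cells, gave the background values. Per the labels, both kinds of mice also carried biomaterial scaffolds, which were explanted along with these organs. The labels do not give the number of animals behind a library or say whether lung and spleen of a day came from the same animals. With day as a block, p-values measure how far the organ difference varies over days that also differ in age. Without the block they measure the spread between libraries. Either spread may be technical.

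Granulocytes are made from myeloid progenitors, which fill azurophil granules first (myeloperoxidase, neutrophil elastase, proteinase 3, cathepsin G), then specific granules (cathelicidin, lactoferrin), and stop dividing before they mature. Mature neutrophils carry the receptors for granulocyte colony-stimulating factor and for CXC chemokines, leave the site of production and collect in the capillaries of the lung. The mouse spleen can make granulocytes itself, and the 4T1 tumour is known for raising granulocyte numbers in blood, spleen and lung.

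The 250 bases before the start of 4 early granule and progenitor genes are shown because these genes were higher in every spleen library than in any lung library. The sequences come from RefSeq on build GRCm38.p6, the build of the mm10 coordinates named for the files, and run 5′ to 3′ on each gene's strand. Capitals mark letters that match one of 4 motifs on either strand: TTGCNNAA (C/EBP), GAGGAA (PU.1), TGTGGT (RUNX) and AACNGT (MYB).
Ctsg: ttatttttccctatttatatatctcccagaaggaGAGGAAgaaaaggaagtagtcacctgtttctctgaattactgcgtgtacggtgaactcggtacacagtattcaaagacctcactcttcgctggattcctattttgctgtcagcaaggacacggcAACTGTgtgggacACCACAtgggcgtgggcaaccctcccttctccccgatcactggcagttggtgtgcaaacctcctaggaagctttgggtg
Elane: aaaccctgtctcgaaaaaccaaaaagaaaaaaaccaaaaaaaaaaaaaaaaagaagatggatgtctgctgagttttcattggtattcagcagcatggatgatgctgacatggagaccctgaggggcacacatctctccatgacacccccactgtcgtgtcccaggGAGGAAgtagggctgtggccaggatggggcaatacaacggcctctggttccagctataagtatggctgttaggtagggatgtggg
Mpo: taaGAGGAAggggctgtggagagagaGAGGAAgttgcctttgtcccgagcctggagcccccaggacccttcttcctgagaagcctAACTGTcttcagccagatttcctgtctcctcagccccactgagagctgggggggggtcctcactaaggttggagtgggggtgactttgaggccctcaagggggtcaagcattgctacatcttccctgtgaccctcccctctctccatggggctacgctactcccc
Ms4a3: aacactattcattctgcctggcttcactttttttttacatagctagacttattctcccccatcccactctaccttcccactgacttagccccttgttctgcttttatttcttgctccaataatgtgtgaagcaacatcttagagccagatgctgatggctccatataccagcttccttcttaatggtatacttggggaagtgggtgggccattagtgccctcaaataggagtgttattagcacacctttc
Ctsg, cathepsin G, is shown at chr14:56102575-56102824 on the minus strand, and Elane, neutrophil elastase, at chr10:79886062-79886311 on the plus strand. Mpo, myeloperoxidase, is shown at chr11:87793534-87793783 on the plus strand, and Ms4a3, a membrane protein of granulocyte-monocyte progenitors, at chr19:11640852-11641101 on the minus strand. Over 32851 promoter windows of this length, GAGGAA was found in 23.3%, AACNGT in 22.3%, TGTGGT in 14.0% and TTGCNNAA in 9.56%. Of 9 azurophil list genes with a window, 4 held GAGGAA, 4 held AACNGT, 2 held TGTGGT and 2 held TTGCNNAA. Of 17 mature neutrophil list genes with a window, 9 held GAGGAA, 5 held TGTGGT, 3 held TTGCNNAA and 0 held AACNGT. These are letter matches only.

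The libraries were made by Drop-seq, in which a bead captures the transcripts of a cell in a droplet and each molecule is counted once by its unique molecular identifier (UMI). The lung libraries held 929, 931 and 2353 kept cells at days 7, 14 and 21, and the spleen libraries 1018, 2598 and 1465, where the labels speak of about 1000 bead-cell pairs taken forward. Kept UMIs ranged from 1155409 to 3653331 per library, with a median of 744 to 1115 UMIs per cell. Libraries of a day shared cell barcodes: lung and spleen had 71, 26 and 514 barcodes in common at days 7, 14 and 21 before shared barcodes were resolved and 0 afterwards. The barcodes removed for sharing came to 2.62% to 30.5% of a library, the most in lung at day 21. With all barcodes kept where they were found, 1273 genes were called in place of the 977 given below. When barcodes alike in their first 11 bases were merged before the filters, lung held 779, 930 and 2334 and spleen 802, 2592 and 1461. The counts of cells at day 7 thus depended most on this choice. Whether such barcodes came from 1 bead was not tested. No doublets were removed and no doublet caller was run.

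Against lung, spleen was higher in the genes of early granulocyte development, DNA replication and B cells, and lower in the genes of mature neutrophils, inflammatory mediators, alveolar macrophages and lung stroma. Spleen Ctsg was higher by 6.78 ± 0.50 (SE) on the log2 scale and spleen Csf3r was lower by a log2 difference of -2.22 ± 0.37 (n = 3 libraries per organ). The calprotectin genes S100a8 and S100a9, the most used markers of neutrophils, did not pass the test: S100a8 differed by -0.29 ± 0.57 (adjusted p = 0.764) and S100a9 by -0.47 ± 0.56. Of 10000 genes tested with edgeR's quasi-likelihood test and Benjamini-Hochberg adjustment, with day as a block, 977 had an adjusted p below 0.05, which is 9.77%. Of these, 391 (3.91%) were higher in spleen and 586 (5.86%) lower, around a median of 0.02 over all genes on the log2 scale. The 3 libraries of one organ did not overlap the 3 of the other for 27.5% of the genes tested. Day 14 weighed most on the count: 193 genes were called without it, 2033 without day 7 and 864 without day 21. Without the day block 0 genes were called. Of the 24 genes named for the size of their difference, 24 kept their direction in each of these fits, and 23 remained called without day 14, Hist1h1b being the exception. In whole libraries, fewer cells of a type and less RNA per cell cannot be told apart.

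**Figure D1:**
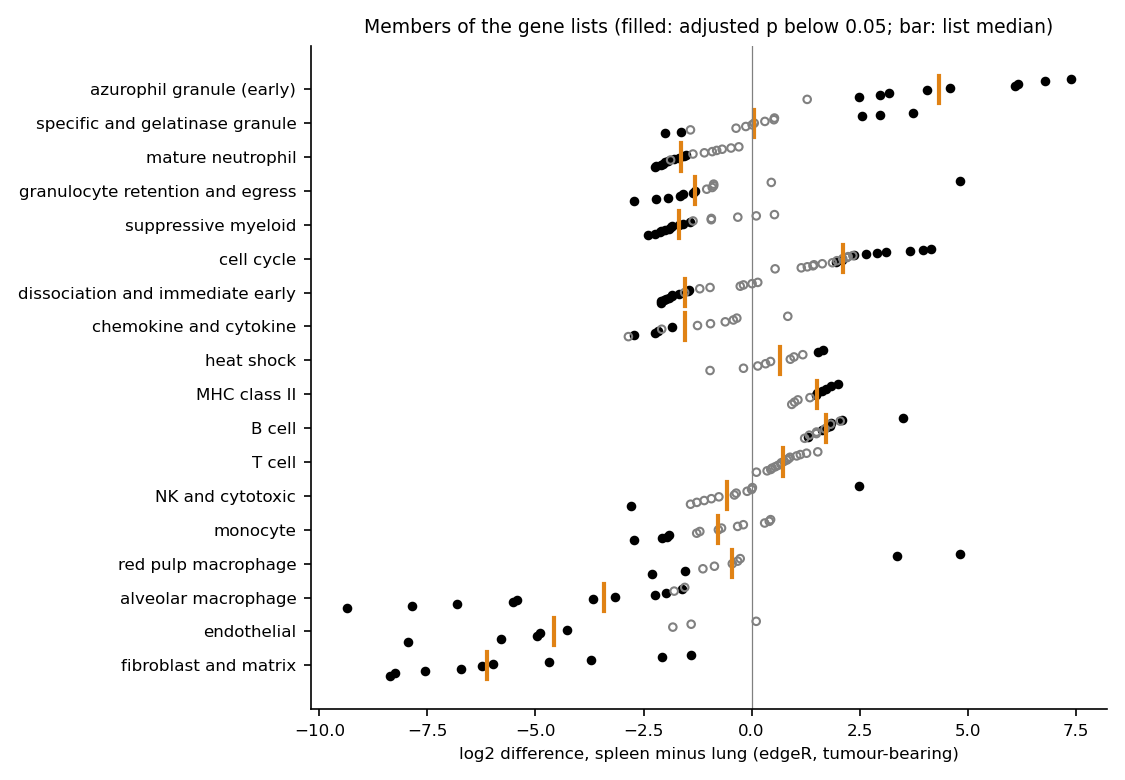
Each point is a member of a gene list, placed by its log2 difference (spleen minus lung, edgeR, 6 tumour-bearing libraries); filled points had an adjusted p below 0.05 and orange bars are list medians. The azurophil list has its median at 4.33 and the mature neutrophil list at -1.63; fitted values of genes with 0 UMIs in spleen, most in the fibroblast list, are no bounds.

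Levels are given as CPM, the UMIs of a gene scaled to a common library total, in the order of days 7, 14 and 21. Among azurophil granule genes, Ctsg (chr14:56099885-56102574), the serine protease whose promoter is printed above, was at 0.865, 16.4 and 18.9 CPM in lung and at 208, 1194 and 2717 CPM in spleen. Elane was at 0, 31.2 and 43.0 CPM in lung and at 135, 1828 and 2792 CPM in spleen. For both, the lowest spleen library lay above the highest lung library, although spleen at day 7 was far below the later spleens. The log2 difference of Ctsg had an adjusted p of 1.94e-04, and that of Elane (chr10:79886312-79888216) was 6.16 ± 0.55 with an adjusted p of 5.52e-04.

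Mpo, which makes hypochlorous acid in the phagosome, was at 0, 30.4 and 17.5 CPM in lung and 158, 1193 and 1445 CPM in spleen (log2 difference 6.10 ± 0.57, adjusted p = 6.18e-04). Ms4a3 had 21 UMIs in the 3 lung libraries together and 2994 in the 3 spleen libraries, and its lung UMIs all came from day 21 (5.75 CPM), while spleen stood at 25.5, 332 and 655 CPM. Prtn3, proteinase 3, was at 10.4, 48.5 and 76.6 CPM in lung and 112, 1014 and 1629 CPM in spleen. Within each day Prtn3 was higher in spleen (log2 difference 4.07 ± 0.42, adjusted p = 0.00107), and its lowest spleen library, day 7, was above every lung library in CPM but not after TMM scaling, the scaling of the test. Fcnb, a ficolin of granulocyte precursors, and Cebpe, the transcription factor of the promyelocyte to myelocyte step, were also higher in spleen, by 4.60 ± 0.62 and 3.17 ± 0.43 (adjusted p = 0.00492 for each). In all, 9 of the 10 azurophil list members tested were higher in spleen and 0 lower, with a median of 4.33. Not all of these members are azurophil granule genes: Ms4a3 encodes a membrane protein of progenitors and Cebpe a transcription factor. Nkg7, a protein of cytotoxic lymphocyte granules, is another, and was higher by 2.48 ± 0.66 (edgeR, adjusted p = 0.0395). So is Igfbp4, which binds insulin-like growth factors, differed by 1.29 ± 0.49 and was not called (edgeR, adjusted p = 0.107).

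Specific granule genes did not move as a block. Camp, the cathelicidin precursor, was at 39.8, 1137 and 1653 CPM in lung and 1552, 12404 and 11514 CPM in spleen (log2 difference 3.73 ± 0.57, adjusted p = 0.00746). Camp was higher in spleen on each day, while spleen at day 7 lay below lung at day 21. Ngp, a cystatin-related granule protein, was higher by 2.56 ± 0.52 (adjusted p = 0.0173), and Ltf, lactoferrin, by 2.97 ± 0.76 (adjusted p = 0.0346). Mmp8, the neutrophil collagenase, went the other way, at 594, 1149.7 and 5875 CPM in lung and 154, 489 and 972 CPM in spleen (log2 difference -2.0 ± 0.43, adjusted p = 0.0201). Padi4, which citrullinates histones, was also lower in spleen, by -1.64 ± 0.41 (adjusted p = 0.0321). Lcn2, lipocalin 2, differed by 0.31 ± 0.46 and was not called (adjusted p = 0.691). Of 13 members, 3 were higher, 2 lower and 8 not called, with a median of 0.06.

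Of 18 mature neutrophil genes, 10 were lower in spleen and 0 higher, with a median of -1.63. Csf3r, the receptor of granulocyte colony-stimulating factor, was at 774, 849 and 694 CPM in lung and 228, 214 and 106 CPM in spleen (adjusted p = 0.00981). Cxcr2, the receptor that draws neutrophils towards CXC chemokines, was at 1685, 2119 and 2139 CPM in lung and 518, 649.7 and 469.9 CPM in spleen, a log2 difference of -1.93 ± 0.37 (adjusted p = 0.0143). Both receptors were lower in every spleen library than in any lung library. Retnlg, a resistin-like protein of mature neutrophils, was lower in spleen by -2.05 ± 0.47 (adjusted p = 0.0244) and its levels went from 1669.5 CPM at day 7 to 13695 CPM at day 21 in lung and from 311 to 2684 CPM in spleen. Prok2, a secreted chemoattractant, and Trem1, an amplifying receptor, were lower by -2.01 ± 0.34 and -2.10 ± 0.38. S100a8 was at 22125, 50534 and 84004 CPM in lung and 10125, 70948 and 81058 CPM in spleen, so that the organs crossed between days. For S100a9, spleen was below lung at days 7 and 14 and above it at day 21 (adjusted p = 0.6). Several stefin genes of this list are near-identical copies, and their counts are uncertain.

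**Figure D2:**
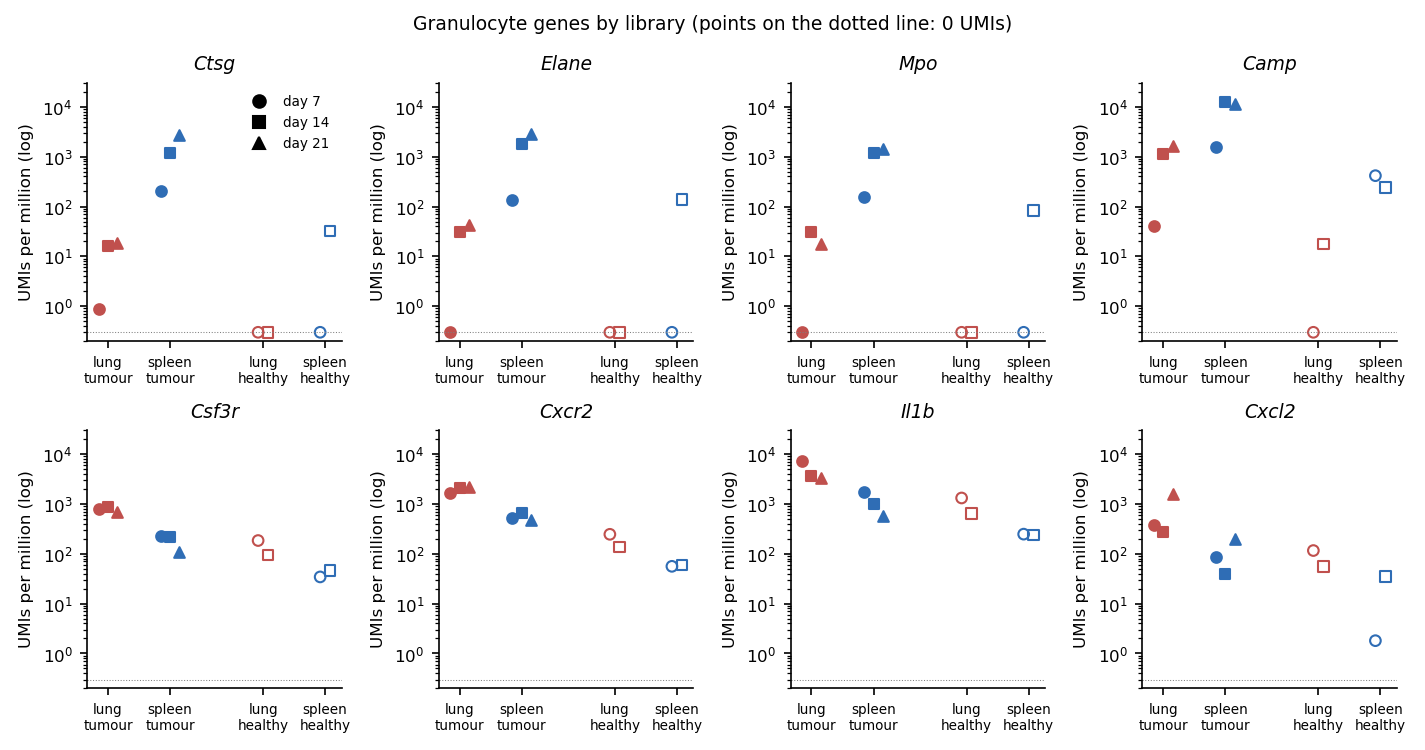
Level of 8 granulocyte genes in each library, in CPM on a log axis; filled points are tumour-bearing, open points healthy (days 7 and 14), and points on the dotted line had 0 UMIs. In the 3 tumour-bearing spleens Ctsg, Elane and Mpo are above, and Csf3r, Cxcr2 and Il1b below, their levels in the 3 tumour-bearing lungs; Cxcr2 in these spleens is above both healthy lungs.

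Most genes called among those that hold or release granulocytes were lower in spleen, with an adhesion molecule as the exception. Vcam1, the adhesion molecule that red pulp macrophages and vessel walls present to leukocytes, was at 3.46, 0.822 and 0.547 CPM in lung and 68.4, 24.2 and 31.8 CPM in spleen (log2 difference 4.82 ± 0.54, adjusted p = 0.00223). Cxcl2, a ligand of Cxcr2, was at 382, 269.6 and 1596 CPM in lung and 87.2, 39.1 and 198 CPM in spleen (log2 difference -2.72 ± 0.37, adjusted p = 0.00492). Spleen was thus higher in Vcam1 and lower in Cxcl2 on each of the 3 days. Of 13 retention and egress genes tested, 1 was higher in spleen (Vcam1) and 7 lower, with a median of -1.31.

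Inflammatory and suppressive myeloid genes were lower in spleen: 11 of 17 suppressive list members were lower and 0 higher, with a median of -1.68. Il1b, interleukin 1 beta, was at 7105, 3599.6 and 3325 CPM in lung and 1704, 980.1 and 576 CPM in spleen (log2 difference -2.22 ± 0.41, adjusted p = 0.0124). Clec4d and Clec4e, lectin receptors of myeloid cells, were lower by -2.12 ± 0.35 and -1.91 ± 0.36. The acute-phase gene Saa3 was at 364, 470.1 and 10166 CPM in lung and 5.36, 133 and 2248 CPM in spleen, and was lower in spleen by -3.07 ± 0.73 (adjusted p = 0.0282). Cebpb, the transcription factor of emergency granulopoiesis, was at 312, 136 and 197 CPM in lung and 81.1, 11.0 and 28.8 CPM in spleen (log2 difference -2.83 ± 0.39, adjusted p = 0.00492). Txnip, which restrains thioredoxin and glucose uptake, was at 222, 312 and 319.7 CPM in lung and 96.5, 32.3 and 27.3 CPM in spleen (log2 difference -2.76 ± 0.48, adjusted p = 0.0108). Also among the 12 genes lowest in spleen were the metalloreductase Steap4 (-2.69 ± 0.45), the transcription factor Ets2 (-2.62 ± 0.43), Rufy4 (-2.58 ± 0.41), Pnpla7 (-2.56 ± 0.51) and the carboxypeptidase Cpd (-2.53 ± 0.40).

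Immediate early genes, which tissue dissociation also induces, moved with these. Of 17 such genes, 10 were lower in spleen and 0 higher, with a median of -1.55, and their summed level was 13076 to 15237 CPM in lung and 5155 to 6195 CPM in spleen. Egr1 was at 887, 877 and 999.6 CPM in lung and 345, 209 and 208 CPM in spleen (log2 difference -1.97 ± 0.37, adjusted p = 0.0134). Ier3, Dusp1 and Btg2 were lower by -2.11 ± 0.35, -2.11 ± 0.40 and -1.85 ± 0.35. In healthy mice the same summed level was 7723 and 5769 CPM in lung and 4849 and 4129 CPM in spleen at days 7 and 14. The part of tissue handling in the lower inflammatory genes of spleen was not tested. Heat shock genes did not follow: 2 of 10 were higher in spleen, Hspd1 (1.54 ± 0.38) and Hspe1 (1.66 ± 0.46), both mitochondrial chaperones, and 0 were lower, with a median of 0.67.

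Genes of DNA replication and division were higher in spleen at days 14 and 21. Of 21 cell cycle genes, 9 were higher and 0 lower, with a median of 2.11, and their summed level was 2252, 2368 and 2042 CPM in lung and 1846, 6259 and 8965 CPM in spleen. At day 7 that sum was lower in spleen than in lung. Rrm2, a subunit of ribonucleotide reductase, was at 8.65, 9.04 and 5.47 CPM in lung and 25.5, 165 and 278 CPM in spleen (log2 difference 3.96 ± 0.69, adjusted p = 0.0108). Tyms, thymidylate synthase, Mcm6, part of the replicative helicase, and Rrm1, the other reductase subunit, were higher by 4.16 ± 0.72, 3.66 ± 0.68 and 2.64 ± 0.51. The linker histone Hist1h1b was higher by 3.18 ± 0.78 (adjusted p = 0.03). Among 10 stem and progenitor genes, Myb, the transcription factor of dividing progenitors, was at 2.60, 6.57 and 1.09 CPM in lung and 34.2, 56.2 and 51.0 CPM in spleen (log2 difference 4.01 ± 0.54, adjusted p = 0.00492). In that list 2 genes were higher in spleen (Myb and Cpa3) and 1 lower (Cebpa, by -2.34 ± 0.59).

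**Figure D3:**
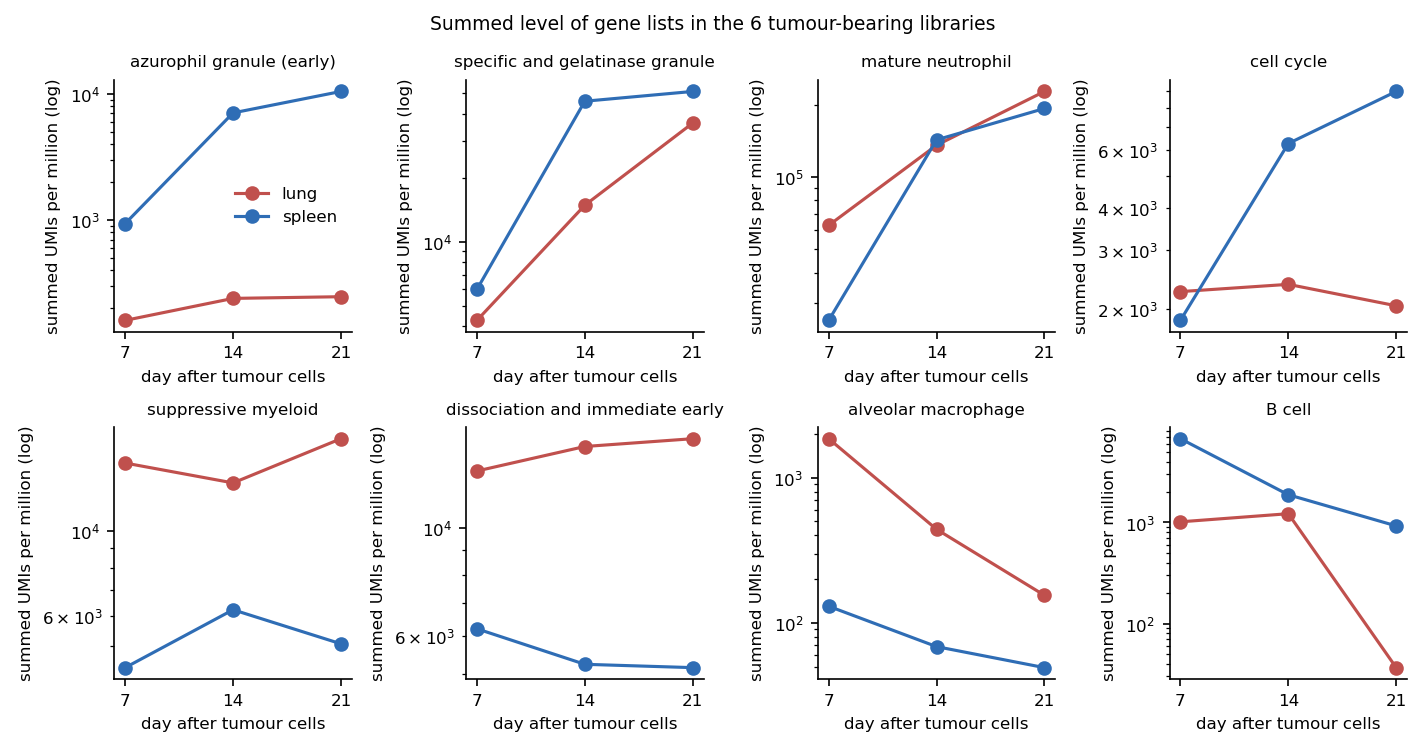
Summed level of 8 gene lists (CPM, log axes that differ between panels) against day after tumour cell injection, 1 library per point, red for lung and blue for spleen. Azurophil genes were at 937 CPM at day 7 and 10425 CPM at day 21 in spleen and between 160 and 247 CPM in lung, and mature neutrophil sums were highest at day 21 in both organs. At day 14 the mature sum was 142713 CPM in spleen and 135537 CPM in lung, although 10 of 18 members were lower in spleen and 0 higher. Most of this sum is S100a8 and S100a9.

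B cell genes were higher in spleen, and most of their level was at days 7 and 14. Of 14 B cell genes, 7 were higher and 0 lower, with a median of 1.72. Ms4a1, which encodes CD20, was at 140.2, 99.4 and 3.28 CPM in lung and 717, 196 and 19.2 CPM in spleen (log2 difference 1.84 ± 0.39, adjusted p = 0.0201). The groups overlapped, since spleen at day 21 lay below lung at days 7 and 14, and the difference was within days. Ighm and Iglv1, an immunoglobulin heavy chain and a light chain segment, were higher by 3.5 ± 0.94 and 4.82 ± 0.94, and reads of immunoglobulin genes can be split between near-identical segments. Among MHC class II genes, 6 of 10 were higher and 0 lower, with a median of 1.51. Of 16 T cell genes, 0 were called in either direction, with a median of 0.72.

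Macrophage genes set the resident cells of each organ apart. Of 12 alveolar macrophage genes, 10 were lower in spleen and 0 higher, with a median of -3.41. Atp6v0d2, a subunit of the vacuolar proton pump, had 409 UMIs in lung and 2 in spleen, a ratio of 263 per UMI sequenced (95% counting interval 72.4 to 2181). Fabp1 had 186 UMIs in lung and 0 in spleen, at least 79.8-fold higher in lung against a floor of 3 UMIs over the spleen group. Lpl, lipoprotein lipase, was at 509.8, 118 and 28.7 CPM in lung and 16.8, 10.4 and 5.91 CPM in spleen (log2 difference -3.68 ± 0.51, adjusted p = 0.00492). Prg4, lubricin, led the macrophage-like cluster with the complement genes C1qa, C1qb and C1qc, not the alveolar macrophage-like one. The level of Prg4 was 698, 89.6 and 38.0 CPM in lung and 2.25 to 4.80 CPM in spleen (-5.29 ± 0.74, edgeR, adjusted p = 0.00518). That cluster had 11, 9 and 1 cells in lung and 14, 41 and 14 in spleen, and Vcam1 and Spic, both higher in spleen, were also among its leading genes. Prg4 is therefore not read as a trait of the whole cluster. These lung levels were lowest at day 21 for each of the 4 genes.

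Red pulp macrophage genes went both ways, with 2 of 9 higher and 2 lower in spleen. Spic, the transcription factor of red pulp macrophages, was at 9.52, 2.47 and 0 CPM in lung and 68.4, 22.2 and 7.76 CPM in spleen. Its log2 difference was 3.36 ± 0.61 (adjusted p = 0.0124). Slc40a1, the iron exporter ferroportin, was lower in spleen over whole libraries (-1.55 ± 0.37, adjusted p = 0.0292) and higher in spleen once cells of the neutrophil lineage were set aside (1.61 ± 0.34, adjusted p = 0.0314). Of 13 monocyte genes, 4 were lower in spleen and 0 higher, with a median of -0.77. All 10 fibroblast and matrix genes tested were lower in spleen, with a median of -6.12, or -3.91 with the 5 genes at 0 UMIs in spleen set at their bounds. For endothelial genes 5 of 8 were lower, and for alveolar and airway epithelial genes 3 of 5. Their summed levels in lung were 399, 571 and 166 CPM for fibroblast genes and 101, 213 and 117 CPM for endothelial genes.

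Clustering of the cells gave 12 classes named from marker genes, and 3 of the 12 (25%) differed in share between the organs. Neutrophil progenitor-like cells, 1 cluster led by Ctsg, Mpo and Elane, were 0%, 0.644% and 0.212% of kept cells in lung, against 1.38%, 9.16% and 14.9% in spleen. The spleen shares at days 14 and 21 had exact 95% intervals of 8.08% to 10.3% and 13.1% to 16.8%, and that of 0 of 929 lung cells at day 7 reached 0.396% (0.323% by a floor of 3 cells). On the log2 scale the difference was 5.10 ± 1.02 (edgeR, adjusted p = 2.45e-04). The genes that define this cluster are those that differed between the libraries, so the shares and the gene levels are one observation made in different ways.

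Neutrophil-like cells had shares of 40.8%, 46.4% and 83.5% in lung and of 10.5%, 17.0% and 29.8% in spleen. Every lung library had the larger share, but the difference of -1.63 ± 0.76 did not pass the test (adjusted p = 0.101; exact permutation test, 2-sided, p = 0.1, the smallest that 3 against 3 allows). Immature neutrophil-like cells had shares of 0.215%, 9.02% and 8.20% in lung and of 1.87%, 24.4% and 30% in spleen (1.98 ± 0.81, adjusted p = 0.067). B cell-like cells were higher in spleen (2.27 ± 0.80, adjusted p = 0.0351), with 45.7%, 21.2% and 6.01% against 11.8%, 6.66% and 0.595% in lung. Taken as a share of cells outside the neutrophil-like clusters, the B cell-like difference was 1.24 ± 0.43 and no longer called (adjusted p = 0.103), and it was not called without the day block (adjusted p = 0.544) or without day 14 (adjusted p = 0.108). Alveolar macrophage-like cells were 9.47%, 3.11% and 0.892% of lung cells and 4 cells in all of spleen (-5.72 ± 1.10, adjusted p = 2.45e-04). Without day 7 none of the classes tested was called (edgeR), basophil or mast cell-like cells being too few to test. Without day 21 there were 6 classes called.

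**Figure D4:**
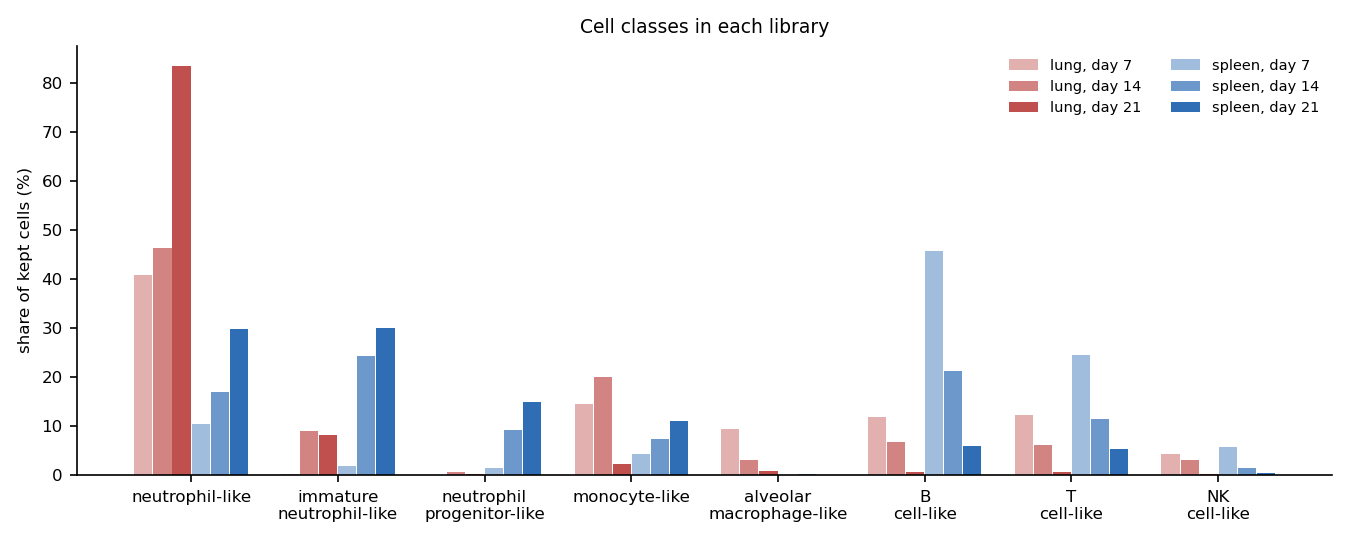
Share of kept cells in 8 of the 12 named classes, in percent, for each library; red bars are lung and blue bars spleen, darker with day. Neutrophil-like shares are highest in lung at each day, and immature neutrophil-like and progenitor-like shares highest in spleen.

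Unnamed clusters held 3 groups of cells. A cluster led by Siglech and Xcr1, which mixed markers of plasmacytoid and conventional dendritic cells, had 132 cells, 118 of them in spleen. A cluster led by Dcn, Igfbp5 and Igfbp7 mixed fibroblast and endothelial markers and had 54 of its 57 cells in lung. Another, of 37 cells with a median of 274 UMIs, all from lung at day 21, was led by Mt2, Krt17 and Krt14.

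The balance of early against late granulocyte transcripts gave 1 value per library: the log2 ratio of summed azurophil to summed mature neutrophil UMIs. It was -8.61, -9.14 and -9.85 in lung and -4.75, -4.34 and -4.21 in spleen at days 7, 14 and 21. All spleen values lay above all lung values, by 4.77 on average, with an exact permutation p of 0.1 (2-sided), the smallest that 3 against 3 allows. Most of the mature sum came from S100a8 and S100a9, which were not called. In neutrophil-like and immature neutrophil-like cells they were at 64938 and 72214 of 183059 CPM in lung at day 7. In such cells of spleen at day 14 they were at 132144 and 115068 of 263280 CPM. The ratio thus mainly sets azurophil against calprotectin transcripts, and Csf3r and Cxcr2 weigh little in it. In healthy mice the ratio was -5.03 and -4.73 in lung and -4.35 and -2.44 in spleen at days 7 and 14, from 103 to 851 azurophil UMIs and 2114 to 6916 mature neutrophil UMIs. With the full list, both healthy lungs thus lay above every tumour-bearing lung, and healthy spleen of day 14 above every tumour-bearing spleen. Nkg7 and Igfbp4 gave 190 of the 191 list UMIs in healthy lung at day 7, 251 of 260 at day 14, and 102 of 103 in healthy spleen at day 7, but 275 of 851 in healthy spleen at day 14. They also gave 155 of the 185 list UMIs in tumour-bearing lung at day 7, where 13 of the 185 were in neutrophil lineage cells. Without this pair of genes, left out after their values were seen, the tumour-bearing ratio was -11.22, -9.78 and -9.89 in lung and -5.15, -4.39 and -4.23 in spleen, a difference of 5.70 (exact permutation p = 0.1). The healthy ratio was then -12.03 and -9.51 in lung, from 1 and 9 UMIs of the remaining genes. In healthy spleen it was -10.46 and -3.01, from 1 and 576 UMIs. Healthy lung of day 7 thus had a value below every tumour-bearing lung, but 1 UMI is too few to order it against tumour-bearing lung of day 7, with 30 UMIs. Healthy spleen of day 14 stayed above every tumour-bearing spleen. Counted in lineage cells alone with the full list, the tumour-bearing difference was 6.35. With the specific granule list in place of the azurophil list it was 1.36.

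Differences were then sought inside the granulocytes, by summing UMIs over neutrophil-like and immature neutrophil-like cells of each library. Within this pooled class, dividing-cell genes and granule genes were higher in spleen, and mature, inflammatory and immediate early genes lower. Of 6410 genes tested, 1454 (22.7%) were called by the same edgeR test: 810 (12.6%) higher in spleen and 644 (10%) lower, around a median of -0.07. Immature cells made up 0.525%, 16.3% and 8.95% of the class in lung and 15.1%, 58.9% and 50.2% in spleen. Cells of a cycling cluster led by Nusap1, Camp and Ube2c made up 0%, 0.194% and 0.649% of the class in lung and 3.17%, 15.5% and 23.5% in spleen. Clusters differed by day too: cluster 1, led by Irg1 and Isg15, held 371 of 381 class cells in lung at day 7, and clusters 0 and 3, led by Saa3 and by Stfa2 and Retnlg, held 1165 and 768 of 2157 at day 21.

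All 21 cell cycle genes were higher in the pooled class of spleen, with a median of 4.29. Top2a, topoisomerase 2 alpha, was at 2.71, 20.4 and 21.3 CPM in lung and 241, 595 and 696 CPM in spleen (log2 difference 5.26 ± 0.36, adjusted p = 2.35e-07). Its spleen level at day 7 was already above every lung library. The mitotic genes Nusap1 (5.43 ± 0.43), Cdca8 (5.01 ± 0.42), Ube2c (4.88 ± 0.41), Prc1 (4.81 ± 0.42), Birc5 (4.81 ± 0.42) and Tacc3 (4.46 ± 0.49) were among the 10 genes with the largest difference towards spleen, with the replication gene 2810417H13Rik (4.60 ± 0.42). Fcnb led that set, at 0, 11.0 and 21.3 CPM in lung and 291, 995 and 501 CPM in spleen (5.66 ± 0.43, adjusted p = 5.51e-07). Of 13 specific granule genes, 7 were higher and 1 lower, and Camp stood at 122, 1989 and 1783 CPM in lung and 12575, 23532 and 17078 CPM in spleen. Camp, Ngp, Ltf and other members of that list are markers that named the immature clusters, so these levels are not independent of the choice of cells.

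Of 18 mature neutrophil genes in the pooled class, 9 were lower in spleen and 0 higher, with a median of -0.87. Of 17 suppressive list genes, 12 were lower and 1 higher, the last being Cybb, an NADPH oxidase subunit named after its values were seen, at 97.7, 411 and 358 CPM in lung and 1399.7, 1954 and 1396 CPM in spleen (2.67 ± 0.32, adjusted p = 2.64e-05). Cxcl2 was at 860.3, 452 and 1706 CPM in lung and 638, 65.3 and 387 CPM in spleen (-1.74 ± 0.35, adjusted p = 0.00237). Txnip was at 385, 367 and 327 CPM in lung and 146, 31.4 and 39.6 CPM in spleen (-2.67 ± 0.35, adjusted p = 5.17e-05). Fosb, an immediate early transcription factor, was at 122, 181 and 98.4 CPM in lung and 50.4, 12.2 and 11.2 CPM in spleen (-2.89 ± 0.40, adjusted p = 9.03e-05). Lower in spleen as well were Gm10800 (-5.16 ± 0.71), Atp11a, a phospholipid flippase (-2.43 ± 0.38), Gm20417 (-2.16 ± 0.40), Ier5 (-2.07 ± 0.46), Cd97, an adhesion receptor (-2.03 ± 0.36), and Abr (-1.92 ± 0.35). Of 15 immediate early genes, 10 were lower and 0 higher. The count of calls fell to 444 without day 14 and 124 without day 21, and was 1955 without day 7.

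The neutrophil-like clusters alone, without the immature ones, showed little of this. Of 3700 genes tested, 11 (0.297%) were called. The 7 higher in spleen (0.189%) were Camp, Ctsg, Elane, Hist1h1b, Mpo, Rpl14 and mt-Nd1, and the 4 lower (0.108%) were Fosb, Gm10800, Txnip and Wdr26. Rpl14, mt-Nd1 and Wdr26 are named here after their values were seen, to complete the count. At an unadjusted p of 0.05 the number was 341, and this setting tests fewer genes on fewer UMIs (108469 to 2652262 per library). The median of the mature neutrophil list was -0.25, of the suppressive list -0.07 and of the immediate early list -0.12, beside -0.02 for all genes. Il1b was at 19839, 7156 and 4468 CPM in lung and 18743, 8721 and 4689 CPM in spleen, a difference of 0.05 ± 0.22 (adjusted p = 0.96). Cxcr2 differed by -0.20 ± 0.22 and Csf3r by -0.29 ± 0.23, neither called. Both receptors, like several other mature list genes, are markers that named these clusters. Their levels there are therefore not independent of the choice of cells.

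Txnip remained lower in these clusters, at 392, 427 and 384 CPM in lung and 221, 84.8 and 112 CPM in spleen (-1.70 ± 0.29, adjusted p = 0.00422). Fosb was at 124, 209 and 119 CPM in lung and 83.0, 10.6 and 21.7 CPM in spleen (-2.39 ± 0.46, adjusted p = 0.0121). For both, each spleen library was below each lung library. The granule genes called there were also found in lymphocytes, which do not make them: Camp was at 46.1, 555 and 554 CPM in neutrophil-like cells of spleen and at 42.6, 529 and 393 CPM in its B cell-like and T cell-like cells. Elane was at 0, 70.6 and 90.5 CPM in the former and 8.74, 66.3 and 122 CPM in the latter. Ctsg was at 9.22, 45.9 and 54.3 CPM in the former and 5.46, 23.3 and 27.1 CPM in the latter. The median depth was 814, 554 and 490 UMIs in the neutrophil-like cells of spleen and 915.5, 538 and 387 UMIs in the lymphocytes, and the granule gene calls are not read as expression by neutrophil-like cells. In monocyte-like cells 2 of 3420 genes (0.0585%) were called, Camp and Ngp, both higher in spleen, with 338 genes under an unadjusted p of 0.05.

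Immature neutrophil-like cells alone could be compared at days 14 and 21, since lung at day 7 held 2 of them. With 1 residual degree of freedom, 626 of 5363 genes (11.7%) were called, 434 higher in spleen and 192 lower. Camp was at 7027 and 7793 CPM in lung and 28616 and 21377 CPM in spleen at the 2 days (1.91 ± 0.33, adjusted p = 0.00431). Camp is a marker that named these clusters, so its level there is not independent of the choice of cells. Cxcl2 was at 208 and 551 CPM in lung and 25.0 and 92.3 CPM in spleen (-2.58 ± 0.36, adjusted p = 0.0019). Txnip (-2.76 ± 0.42), Il1b (-1.90 ± 0.37) and Egr1 (-1.84 ± 0.34) were lower as well. The organs filled this class from different clusters: the cycling cluster held 1 of 84 and 14 of 193 immature cells in lung and 166 of 633 and 206 of 439 in spleen, and another cluster, led by Ltf, held 78 of the 84 in lung at day 14. A further cluster held 171 of the 193 in lung and 210 of the 439 in spleen at day 21. Its leading genes held 1 immature marker, Ifitm6, beside Stfa3, Stfa2, Stfa2l1 and Ly6g of the mature list. Its markers averaged 1.27 on the log2 scale for the immature class and 0.48 for the neutrophil class. The genes called within the immature class therefore differ between mixtures of clusters, and the part of that mixture was not tested. Of 21 cell cycle genes 20 were higher, and of 14 immediate early genes 8 were lower and 1 higher. With the cycling cells left out of the pooled class, 299 genes were called.

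**Figure D5:**
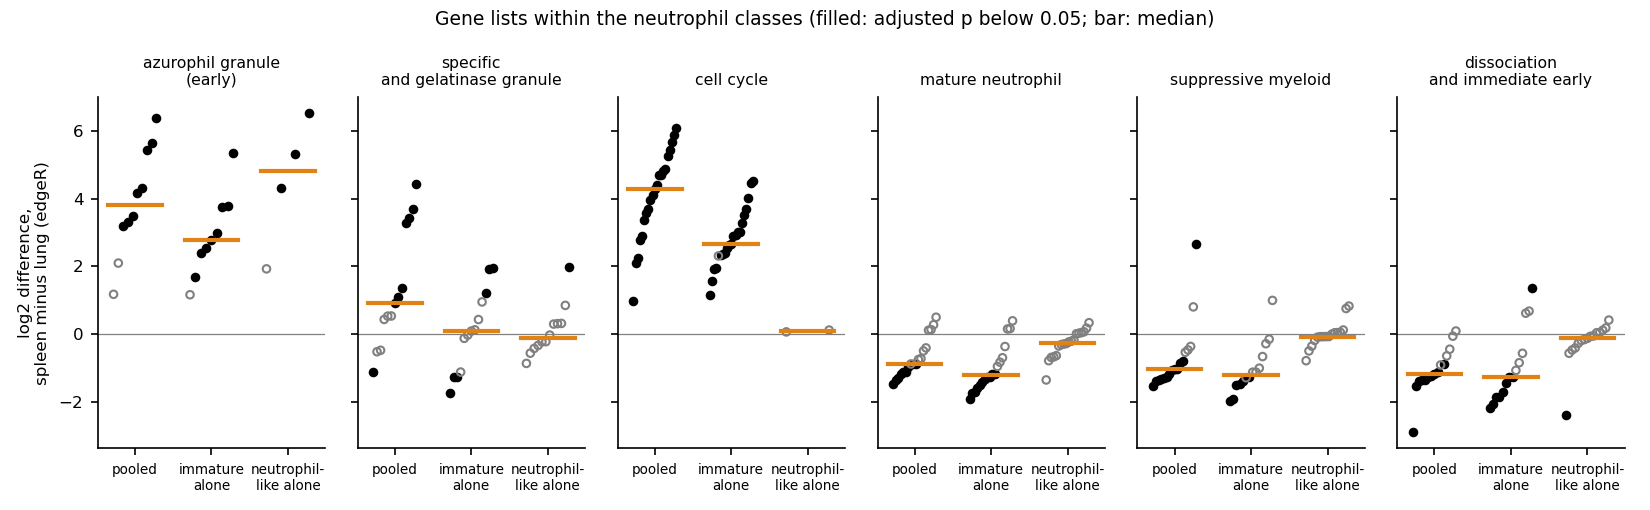
Log2 differences (spleen minus lung, edgeR) of the members of 6 gene lists in the pooled class, in immature neutrophil-like clusters alone (days 14 and 21) and in neutrophil-like clusters alone; filled points had an adjusted p below 0.05 and bars are medians. The mature neutrophil medians are -0.87, -1.21 and -0.25, and in the neutrophil-like clusters 3 of 4 azurophil points are called, from genes also found in lymphocytes.

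Healthy organs gave the background of these differences. At days 7 and 14 Ctsg, Elane and Mpo were at 0 CPM in both healthy lungs and in healthy spleen of day 7, and at 32.1, 139 and 83.6 CPM in healthy spleen of day 14. Csf3r was at 184 and 94.5 CPM in healthy lung and 34.3 and 45.6 CPM in healthy spleen, and Il1b at 1314 and 649.8 CPM against 247 and 237 CPM, with spleen below lung at both days. S100a8 was between 1261 and 2177 CPM in the 4 healthy libraries, below every tumour-bearing one. The organ difference itself was compared between tumour-bearing and healthy mice with an interaction term over 10 libraries. By edgeR, 0 of 9868 genes (0%) were called, with 1186 under an unadjusted p of 0.05. For Txnip the tumour-bearing difference minus the healthy one was -1.83 ± 0.64 (adjusted p = 0.389), and for Csf3r -0.58 ± 0.56 (adjusted p = 0.661). The median over 21 cell cycle genes was 1.52, with 21 above 0, and over 10 azurophil genes -0.09 with 5 above 0, beside 0.06 for all genes. Fitted values of genes at 0 in healthy libraries are no bounds. Healthy libraries of day 21 were left out because 77.2% of lung and 94.7% of spleen barcodes were shared with other libraries. With them, 23 genes were called.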

How the data were processed

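Drop-seq libraries of lung, spleen and scaffold were deposited by the authors as 1 table of UMI counts per library, raw counts of genes by barcodes, with the genome build mm10 and Seurat 2 named per the submitters' processing notes; the aligner is not given in the sources used here. Barcodes with at least 200 genes and under 20% mitochondrial UMIs were used. A barcode found in 2 or more libraries of a day was used only where its UMIs were at least 5 times the next. UMIs were summed per library and tested with edgeR 4.0.16 (R 4.3.3; quasi-likelihood, TMM, filterByExpr, Benjamini-Hochberg over all genes tested), with day as a block. Day is a label shared by lung and spleen, and the deviations of lung and spleen libraries of a day correlated at 0.48, 0.23 and 0.50 at days 7, 14 and 21. Cells of the 6 libraries were clustered with scanpy 1.11.5 (2000 variable genes, 30 components, Leiden resolution 1) and named from marker lists, a cluster needing 3 markers at 1.5 times the other cells; the naming thresholds were set after the clusters were seen. DESeq2 1.42.0 was an alternative. The scripts were tested on simulated data.

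The members and gene lists were chosen with earlier results of these data known. Genes were named by size: the 12 with the largest difference in each direction (10 within neutrophils) among those called, in the same direction at 3 days and at 50 CPM or more, and up to 4 genes of a list by smallest p, with defining markers. Exact binomial intervals and floors of 3 counts cover counting error only. The intervals of shares treat each barcode as a separate cell. Of the list genes, 369 matched by symbol, 8 by an older symbol and 5 were not matched. Alternatives covered scaling, filters, barcode sharing, cell sets and leaving out each day.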

Additional observations from a re-analysis of the deposited data

How the results depend on the processing

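With 2 residual degrees of freedom, the count of 977 genes called between the organs depended on the pairing by day: without the replicate block it was 0. It was 1861 with no filter on low counts, 634 with all 9 tumour-bearing libraries in the fit and 276 in cells outside the neutrophil lineage, and 193 to 2033 with 1 day left out. DESeq2, library totals, 400 genes per barcode and the ways of treating shared barcodes left it between 773 and 1289. In the pooled neutrophil class, the count of 1454 was 122 without the replicate block, 793 by DESeq2 (789 of them among the 1454), 11 in neutrophil-like clusters alone, 3431 with progenitor-like clusters added (1379 among the 1454) and 124 to 1955 with 1 day left out. Immature clusters alone gave 626 and leaving out cycling clusters 299, both chosen after seeing the data. The interaction gave 0 except with healthy day 21 included (23). Classes called ranged from 0 to 6 with 1 day left out. The ratio difference of 4.77 was 6.35 in lineage cells, 5.70 without Nkg7 and Igfbp4 (chosen after seeing the data) and 1.36 with specific granule genes. Signs changed for Hbb-bt (-0.0245 without the block, -0.53 at 400 genes, -0.0881 to 1.13 with 1 day left out), for Slc2a3 (0.21), Slc40a1 (1.61) and Isg15 (0.00589) outside the lineage, and for Il1b (0.0493), Cybb (-0.0709) and Clec4d (0.0569) in neutrophil-like clusters alone. Class shares changed sign for plasma cell-like (-0.11 without the block, -1.0 outside neutrophils, -0.58 to 1.05 with 1 day left out), erythroid-like (-0.15 outside neutrophils, -0.11 to 1.14 with 1 day left out), NK cell-like (-0.89 outside neutrophils, -0.28 to 0.65 with 1 day left out) and monocyte-like cells (-1.58 to 0.38 with 1 day left out). The cause was not tested. Genes with few UMIs in an organ are limited by depth.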

Other observations

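Transcripts of granulocytes were present in lymphocytes of both organs. In B cell-like and T cell-like cells, S100a8 was at 2485, 7708 and 8295 CPM in lung and 929, 9918 and 3632 CPM in spleen at days 7, 14 and 21. Elane was at 0 CPM in these cells of lung and at 8.74, 66.3 and 122 CPM in those of spleen. The lung cells held 247128, 136870 and 22303 UMIs in all at the 3 days, too few at day 21 to tell 0 from the spleen level. Of the basophil and mast cell list, 2 of 6 genes were higher in spleen, the mast cell carboxypeptidase Cpa3 (3.29 ± 0.63, adjusted p = 0.0142 by edgeR) and the basophil protease Prss34 (2 UMIs in lung and 549 in spleen, a ratio of 213 with a 95% counting interval of 58.7 to 1765, adjusted p = 0.00492 by edgeR). The list sum was 54.5, 37.0 and 7.39 CPM in lung and 35.5, 508 and 118 CPM in spleen, so spleen was lower at day 7. Basophil or mast cell-like cells numbered 7, 3 and 1 in lung and 2, 13 and 2 in spleen. Their share was not called (-0.06 ± 1.17, adjusted p = 0.976 by edgeR). Of 13 type I interferon response genes, 2 were lower in spleen, Oasl1 (-1.98) and Isg15 (-1.39), and 0 higher. Of 14 glycolysis and hypoxia genes, the glucose transporters Slc2a1 (-1.97) and Slc2a3 (-1.23) were lower and 0 higher. Over all genes tested, 3.91% were higher and 5.86% lower in spleen, and counts of 2 in 13 and 2 in 14 are too small to read as a result about these lists. Outside the neutrophil lineage Isg15 (0.00589) and Slc2a3 (0.21) were no longer lower.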
